A study of Homo sapiens with 12 samples.

Results

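Transcription of a protein-coding gene by RNA polymerase II (Pol II) ends in cleavage and polyadenylation of the transcript, and the proteins that carry Pol II from the promoter to that point are themselves encoded by genes that Pol II transcribes. The newly made RNA of 40 such genes, of the 23434 genes counted, was followed in human osteosarcoma cells in which Myc was activated and an shRNA against CDK12 was expressed. The 40 genes were listed by name, with earlier results of these data known: 4 subunits of Pol II or proteins bound to it, 4 subunits of NELF, 2 of DSIF, 5 of the PAF1 complex, SPT6 with both subunits of FACT, and 22 factors of cleavage, polyadenylation and termination. All 40 were in the count table.

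Paused Pol II close to promoters is held by DSIF and NELF, and its release into the gene body is brought about by kinases that phosphorylate DSIF, NELF and the long carboxy-terminal domain (CTD) of POLR2A, the largest subunit. The PAF1 complex, SPT6 and the histone chaperone FACT then travel with the polymerase and allow it to pass nucleosomes. At the end of the gene CPSF, CstF, CFIm and CFIIm recognise the poly(A) site, cut the RNA and hand it to poly(A) polymerase, and the exonuclease XRN2 degrades what Pol II still makes downstream. CDK12 is one of the CTD kinases and is known for keeping Pol II from using early poly(A) sites in long genes, while Myc is known for binding the promoters of many active genes and for its contacts with the elongation machinery.

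U2OS cells, an osteosarcoma line, expressed MycER, a fusion of Myc to the oestrogen receptor that is inactive until 4-hydroxytamoxifen (OHT) is given. They were infected with virus for a non-targeting shRNA (shNT) or an shRNA against CDK12 (shCDK12), which was switched on with 1 µg/mL doxycycline in all 4 groups, while OHT (300 nM, 40 h) switched MycER on in the groups shNT+OHT and shCDK12+OHT. All cells were arrested with 100 ng/mL nocodazole for 8 h, collected by mitotic shake-off, released for 12 h and given 0.5 mM 5-ethynyl-uridine (EU) for the last 2 h, so that RNA made in this window could be captured (EU-seq). Each group had 3 libraries, with total counts of 1928373, 4314380 and 5227279 in shNT, 1251695, 3297982 and 3666406 in shNT+OHT, 4142570, 5349901 and 9400045 in shCDK12, and 5378438, 7173020 and 10447836 in shCDK12+OHT, each from lowest to highest. The model is 1 cell line, the labels do not say whether the shCDK12 cells carry 1 hairpin or are 1 clone, and MycER is an added copy of Myc under a promoter that the labels do not name. Murine EU-labelled RNA (10 µg to 40 µg of human RNA) was added before capture, but no murine counts were analysed here. All values are therefore shares of each library, so a change in total new RNA cannot be seen, and fewer cells of a kind cannot be told apart from less RNA per cell.

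The new RNA of CDK12 did not follow the shRNA label. Levels are given as CPM, the counts scaled to the TMM-adjusted total of each library. CDK12 was at 323, 289 and 300 CPM in shNT and at 293, 277 and 298 CPM under the label shCDK12, and the ranges overlapped (log2 fold change −0.08 ± 0.08 SE, adjusted p = 0.447). With OHT, CDK12 was at 434, 356 and 401 CPM in shNT cells and at 215, 208 and 218 CPM under the label shCDK12+OHT, where it fell by 0.88 ± 0.11 on the log2 scale (adjusted p = 0.00011). An shRNA acts on mature mRNA, so new RNA is an incomplete check of a knockdown, but every direction below that is drawn from the label shCDK12 rests on libraries whose CDK12 signal without OHT overlapped that of shNT. CDK12 was lower under the label shCDK12+OHT than under the label shCDK12, and the Myc targets described next were high under shCDK12 and low under shCDK12+OHT. Whether these 2 labels were exchanged was not tested. An exchange would turn the sign of every OHT response in these libraries and would put other libraries into both shRNA comparisons. The interaction values given below rest on these labels in the same way. It would leave the split between all 6 libraries of the shCDK12 labels and all 6 of the shNT labels as it is. By that split, POLR2A and CTR9 lay above in every library and CPSF2, CPSF7, CSTF1, NELFE, SCAF4, SUPT16H, SUPT4H1, SYMPK and WDR33 below, which is 5.13% and 23.1% of the 39 genes tested beside 10.8% and 11.7% of 11699 genes. CDK12 also rose with OHT in shNT (0.38 ± 0.12, adjusted p = 0.0352) and fell with OHT in the libraries labelled shCDK12 (−0.44 ± 0.07, adjusted p = 9.55e-05). The rise in shNT was lost without any 1 of the shNT libraries or without shNT+OHT replicate 3, at adjusted p-values from 0.0863 to 0.197. With all libraries thinned to the total of the smallest, both calls were lost. The rise was then 0.34 (adjusted p = 0.125) and the fall −0.52 (adjusted p = 0.0506).

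Other checks of the labels moved with the groups as well. MYC, whose reads may include those of the MycER fusion, was at 2221, 2044 and 2013 CPM in shNT, 2199, 1706 and 1997 CPM in shNT+OHT, 1214, 1035 and 1122 CPM under the label shCDK12 and 2091, 2095 and 2000.4 CPM under the label shCDK12+OHT, so that the libraries labelled shCDK12 stood apart. Of 10 Myc targets, 8 rose with OHT in shNT and 8 fell with OHT in the libraries labelled shCDK12, while 7 were higher under the label shCDK12 without OHT and 9 lower with it, with summed levels of 2278 ± 112 CPM in shNT, 3755 ± 208 in shNT+OHT, 4064 ± 84.8 in shCDK12 and 2513 ± 121 in shCDK12+OHT (mean ± SD of 3 libraries). NCL was the most abundant of them in shNT and shNT+OHT and ODC1 under both shCDK12 labels. The sum over 8 G2/M genes, of which MKI67 was the most abundant in all 4 groups, was 2699 ± 221, 2851 ± 178, 2615 ± 233 and 1499 ± 75.1 CPM in the same order, and all 8 fell with OHT in the libraries labelled shCDK12. The sum over 8 genes of G1/S and S phase, led by RRM2 in all groups but shCDK12+OHT, where PCNA led, was 1195 ± 66.5, 1068 ± 41.6, 1501 ± 64.7 and 1091 ± 37.1 CPM. All 5 mesenchymal and osteosarcoma markers (VIM, RUNX2, SPARC, FN1 and COL1A1) were found, and their sum was 1545 ± 42.2 CPM in shNT, 1032 ± 57.6 in shNT+OHT, 405 ± 5.86 in shCDK12 and 569 ± 8.97 in shCDK12+OHT. All 5 were lower in the libraries labelled shCDK12 than in shNT. FN1 was the most abundant of them in shNT (653 to 669 CPM) and shNT+OHT (310.2 to 393 CPM), but was at 35.2 to 41.0 CPM under the label shCDK12 and 88.1 to 108 CPM under the label shCDK12+OHT, where VIM led. The 4 epithelial markers summed to between 9.52 and 15.5 CPM, with KRT19 at 0 in all libraries. CDH1 was the most abundant of them except under the label shCDK12, where EPCAM was at 8.03 ± 1.45 CPM and CDH1 at 6.10 ± 2.28 CPM, beside 0.82 ± 0.88 and 9.57 ± 1.29 CPM in shNT. The 4 blood and endothelial markers, of which PTPRC had the highest mean over all 12 libraries, summed to at most 2.34 CPM. The part of these differences in the changes described below was not tested.

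**Figure D1:**
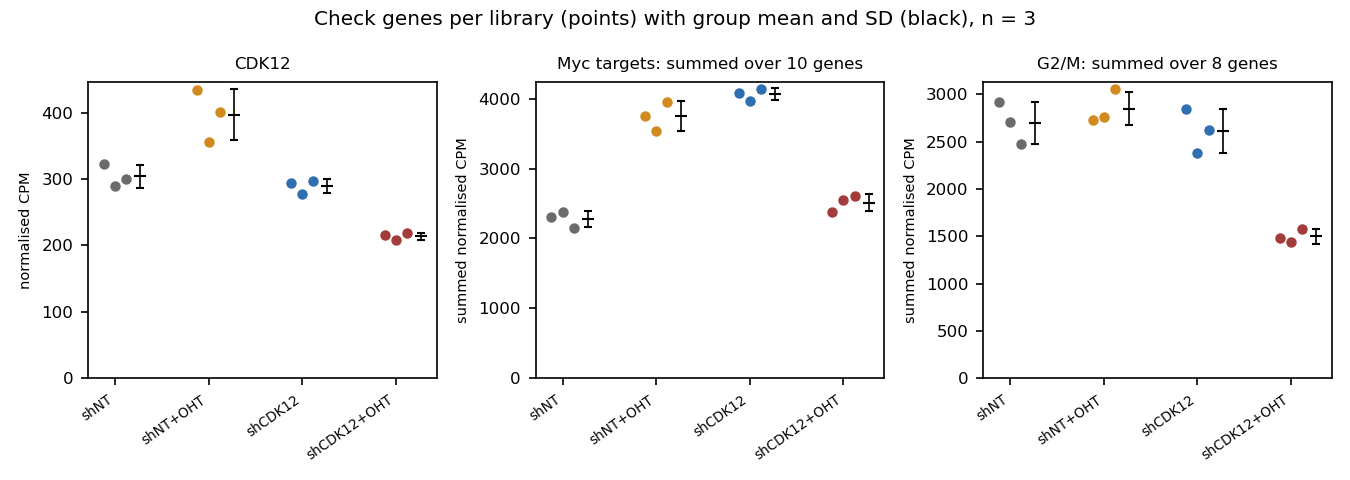
New RNA of CDK12 and the summed new RNA of 10 Myc targets and 8 G2/M genes, in normalised CPM on linear axes from 0, with 1 point per library and the mean and SD of each group of 3 libraries in black. CDK12 overlaps between shNT and the libraries labelled shCDK12 and is lowest in shCDK12+OHT (208 to 218 CPM), and the Myc target sum is high in shNT+OHT and shCDK12 and low in the other groups.

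Activation of MycER in shNT cells raised 4 of the 38 genes tested and lowered none. The number called was 7 with DESeq2 and 10 with all 12 libraries in 1 fit, and with 1 library left out it was lowest, at 2, when shNT replicate 1 was dropped and highest, at 8, when replicate 1 of shNT+OHT was. The 4 were POLR2D, NELFCD, CPSF6 and SSRP1, from the polymerase, the pausing factor, the cleavage machinery and FACT. The genes are called changed at an adjusted p under 0.05 in edgeR's quasi-likelihood test, and the 4 are 10.5% of those tested, against 17.3% of all 10272 genes in this comparison, with 9.05% higher and 8.29% lower. The median log2 fold change of the 38 genes was 0.12, beside −0.03 for all genes. Of the 4 calls, those of POLR2D and NELFCD held whichever library was left out, and with all libraries thinned to the total of the smallest that of POLR2D held.

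Comparisons between the shRNA labels held more calls, with POLR2A, CTR9 and SSU72 highest and NELFE, CPSF2 and SUPT16H lowest relative to shNT. Without OHT, 12 of 39 genes were higher and 13 lower than in shNT (64.1%, against 62% of all 11718 genes tested, with 29.6% higher and 32.4% lower), and the median was −0.01 (all genes, −0.03). With OHT in both groups, 4 were higher and 14 lower under the label shCDK12+OHT (46.2%, against 45.4% of 11668 genes, with 23.8% higher and 21.6% lower), and the median was −0.29 (all genes, 0.05). After thinning, the calls for CPSF4, RBBP6, PAPOLA, SCAF4, SUPT6H, NELFA, NELFB, NELFCD and NELFE were lost in the first comparison (adjusted p from 0.0721 to 0.428) and those for FIP1L1, WDR33, CLP1, RBBP6, RTF1, SUPT4H1, SUPT16H and NELFA in the second (0.0622 to 0.64). The share of genes changed was near that of the whole table in both comparisons. With OHT, 4 of the 18 called genes were higher, and over all genes the share of calls that were higher ran from 37.8% after thinning to 56.4% without the filter on low counts. The median of all genes in this comparison was −0.02 with DESeq2 and −0.06 after thinning. With OHT, the strongest called rises were those of POLR2A, CTR9 and RTF1 and the strongest falls those of NELFE, SUPT16H and CSTF1.

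Within the libraries labelled shCDK12, OHT lowered 11 genes and raised 2 (33.3% of 39, against 48.9% of 12519 genes, with 27.5% higher and 21.5% lower), and the median was −0.07 (all genes, 0.05). The 2 that rose were CPSF4 and SUPT4H1. After thinning, CPSF6, PCF11 and NELFCD kept their calls. The interaction test asks whether OHT acted alike in both shRNA backgrounds, and 14 of 39 genes passed it over all 12 libraries (35.9%, against 45.2% of 11699 genes, with 25.6% higher and 19.6% lower), of which 11 were lower and 3 higher in the libraries labelled shCDK12 than in shNT. The median interaction of the 39 genes was −0.19, beside 0.10 for all genes. In all, 30 of the 39 genes passed at least 1 of the 5 tests (76.9%, against 78.5% of 12618 genes), and 9 passed none: CPSF1, NUDT21, CSTF2, PABPN1, XRN2, SCAF8, LEO1, CDC73 and SUPT5H. POLR2M was too low to be tested and CDC73 too low in the comparison of shNT+OHT with shNT.

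**Figure D2:**
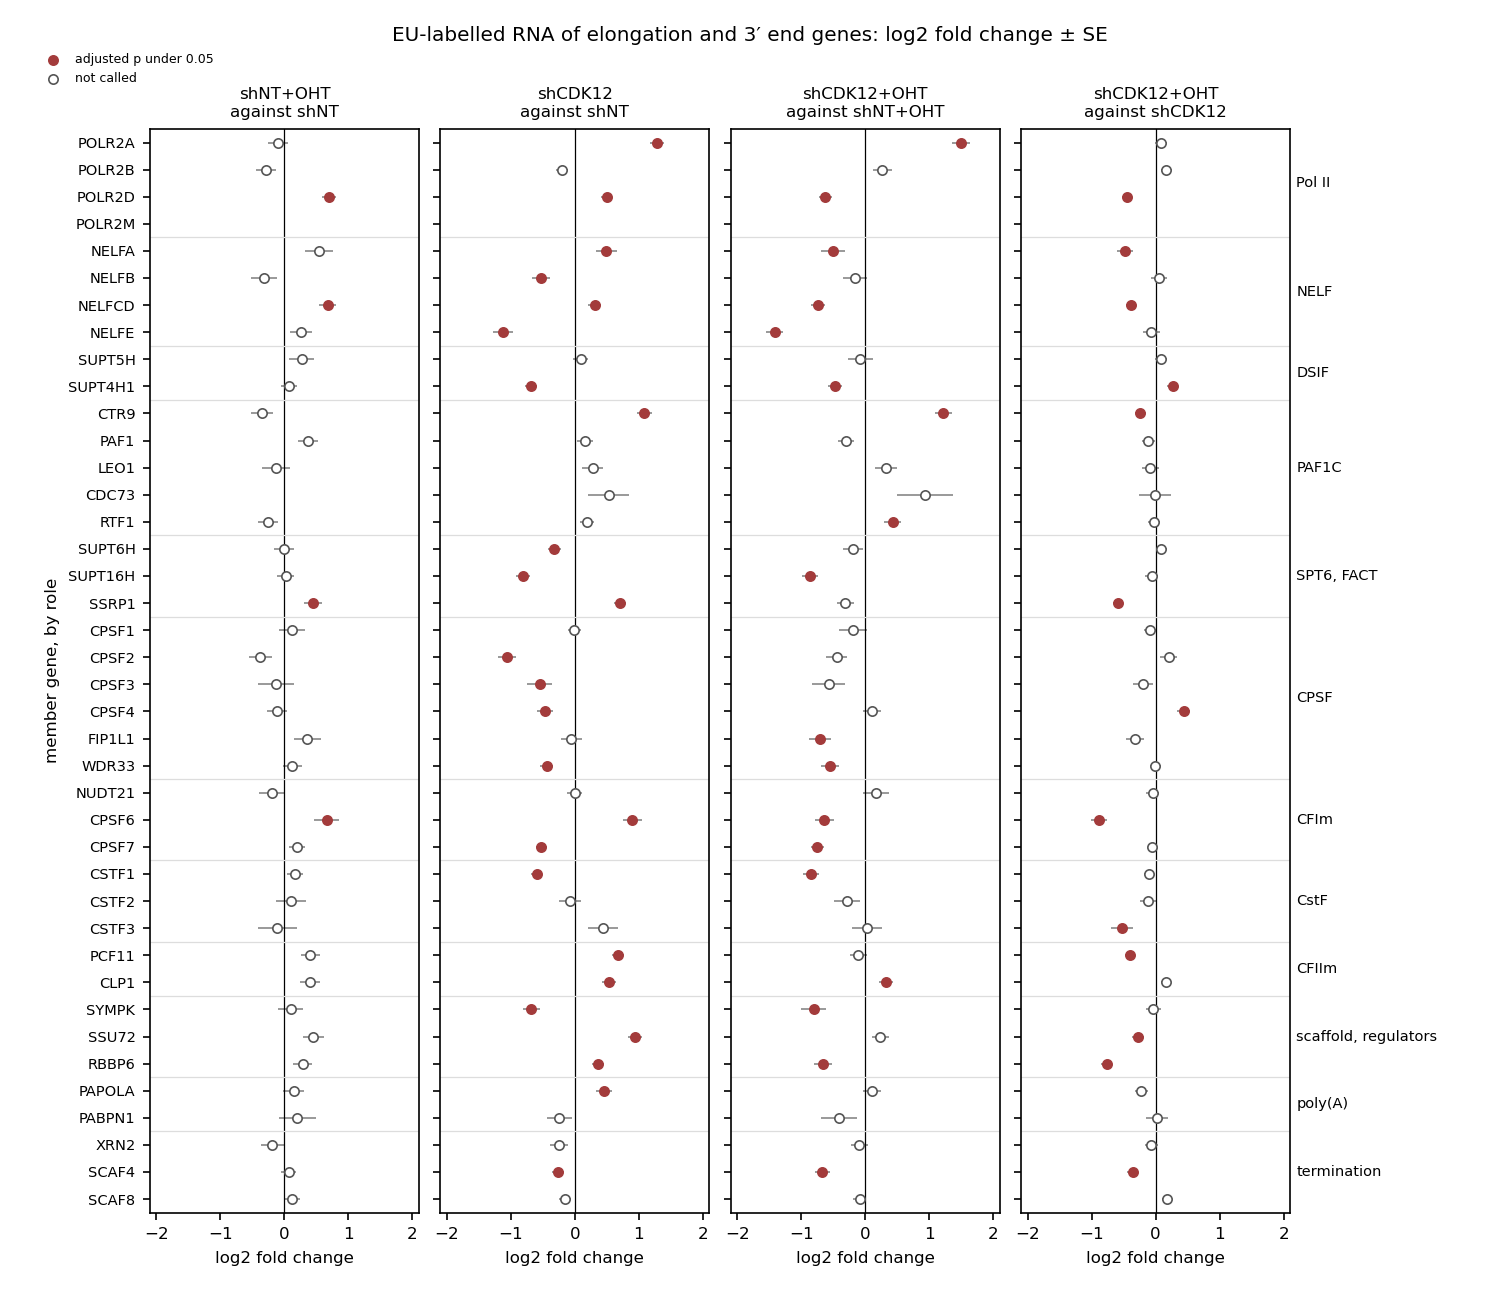
Log2 fold change of each gene in the 4 comparisons of 2 groups, by role, with bars for the SE from the fit on 3 against 3 libraries; filled points passed an adjusted p of 0.05 and open points did not. POLR2M is absent because its counts were too low, and CDC73 is absent from the first panel. The points spread widest in the 2 middle panels, where POLR2A and CTR9 lie far to the right and NELFE far to the left.

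The catalytic core of the polymerase did not move as 1 unit. POLR2A, the largest subunit and the carrier of the CTD that CDK12 phosphorylates, was at 132, 138 and 108 CPM in shNT, 138, 94.0 and 119 CPM in shNT+OHT, 359.9, 262 and 316 CPM under the label shCDK12 and 321, 329 and 341 CPM under the label shCDK12+OHT. Every library labelled shCDK12 or shCDK12+OHT lay above every shNT or shNT+OHT library, and no change with OHT passed in either background. POLR2A was 2.45-fold higher without OHT (log2 1.29 ± 0.11, adjusted p = 1.98e-10) and 2.82-fold higher with OHT (1.50 ± 0.14, adjusted p = 1.93e-05), the strongest rise among the 39 genes tested in both comparisons.

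POLR2B, the second-largest subunit, was between 107 and 171 CPM in all libraries and passed none of the comparisons of 2 groups. Its libraries labelled shCDK12 (131 to 156 CPM) lay below those of shNT (158 to 171 CPM), in a comparison where 64.5% of all genes did not overlap. POLR2B passed the interaction test (0.46, adjusted p = 0.0419), a call lost in 14 of 19 alternatives. POLR2D, which forms the stalk of Pol II together with POLR2G, was at 279, 272 and 229 CPM in shNT, 434, 392 and 439 CPM in shNT+OHT, 382, 334 and 393 CPM under the label shCDK12 and 265, 268 and 281 CPM under the label shCDK12+OHT. It was high in shNT+OHT and shCDK12 and low in the other groups, without overlap in any of the 4 comparisons. POLR2D rose with OHT in shNT by 0.69 ± 0.11 on the log2 scale (adjusted p = 0.0013) and fell with OHT in the libraries labelled shCDK12 (−0.45 ± 0.08, adjusted p = 0.000149), and the difference between these responses passed (−1.14 ± 0.14, adjusted p = 2.21e-06). Against shNT it was higher in the libraries labelled shCDK12 without OHT (0.50 ± 0.09, adjusted p = 3.6e-05) and lower with OHT (−0.62 ± 0.10, adjusted p = 0.000546). POLR2M, which encodes Gdown1, a protein bound to a part of the Pol II pool, was at 0 in 5 of 12 libraries and at most at 1.68 CPM. Its annotated span overlaps GCOM1 on the same strand over 8051 bases, and reads from the shared part cannot be assigned to one of them.

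Of the 4 NELF subunits, which act as 1 complex, 2 were higher and 2 lower in the libraries labelled shCDK12 than in shNT, while with OHT in both groups 3 were lower and none higher (median −0.62). Over all genes, 62% were called in the first of these comparisons, and 45.4% were called and 21.6% lower in the second. NELFE, its RNA-binding subunit, was at 75.4, 66.6 and 49.6 CPM in shNT, 76.8, 71.8 and 81.8 CPM in shNT+OHT, 30.1, 26.4 and 33.7 CPM under the label shCDK12 and 29.1, 27.5 and 29.2 CPM under the label shCDK12+OHT. The libraries split by shRNA label with no overlap and no call with OHT. NELFE fell by 1.12 ± 0.15 on the log2 scale without OHT (adjusted p = 8.16e-07) and fell by 1.42 ± 0.14 with OHT (adjusted p = 2.85e-05), the strongest fall among the 39 genes tested in both comparisons. With thinned libraries the change without OHT was −0.62 (adjusted p = 0.0843).

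NELFCD was high and low in the same groups as POLR2D. It was at 118, 151 and 132 CPM in shNT, 214, 199 and 229 CPM in shNT+OHT, 177, 160.1 and 163 CPM under the label shCDK12 and 124, 133 and 125 CPM under the label shCDK12+OHT, highest in shNT+OHT. It rose with OHT in shNT (0.67 ± 0.13, adjusted p = 0.00346) and fell with OHT in the libraries labelled shCDK12 (−0.38 ± 0.08, adjusted p = 0.000744). Against shNT it was higher in the libraries labelled shCDK12 without OHT (0.31 ± 0.10, adjusted p = 0.00904), a call that was lost without shNT replicate 1 (adjusted p = 0.104), and lower with OHT (−0.73 ± 0.11, adjusted p = 0.000389). NELFCD overlaps CTSZ on the opposite strand over 9448 bases, and the strand setting of the counting is not given in the sources used here. NELFA took the same directions in the comparisons that it passed, higher without OHT (0.49 ± 0.16, adjusted p = 0.00986) and lower with OHT (−0.50 ± 0.18, adjusted p = 0.0426) under the label shCDK12, and lower with OHT in those libraries (−0.48 ± 0.12, adjusted p = 0.00385). The first of these calls was lost without shNT replicate 1 (adjusted p = 0.06) and the second without shNT+OHT replicate 1 or any 1 shCDK12+OHT library (0.0894 to 0.143). The second was also lost without a filter on low counts (adjusted p = 0.0559) and with the replicate number as a block (0.0724). With thinned libraries these changes were 0.55, −0.68 and −1.11, and none was called (adjusted p = 0.192, 0.243 and 0.0902). NELFB was lower in the libraries labelled shCDK12 than in shNT (−0.53 ± 0.14, adjusted p = 0.0026) and passed no other test.

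The partners in DSIF also differed. SUPT4H1, the small subunit SPT4, was at 154, 155 and 145 CPM in shNT, 159, 152 and 167 CPM in shNT+OHT, 90.3, 94.0 and 98.4 CPM under the label shCDK12 and 113, 115 and 114 CPM under the label shCDK12+OHT. It was low under the label shCDK12 in both settings and lowest without OHT. SUPT4H1 fell by 0.69 ± 0.10 without OHT (adjusted p = 9.88e-07) and fell by 0.47 ± 0.11 with OHT (adjusted p = 0.0057), and it rose with OHT within the libraries labelled shCDK12 (0.27 ± 0.08, adjusted p = 0.0126), which was lost without shCDK12+OHT replicate 2 (adjusted p = 0.055), with upper-quartile normalisation (adjusted p = 0.0501) and after thinning (0.15, adjusted p = 0.732). Its whole span of 7919 bases lies opposite TSPOAP1-AS1, so the signals of these genes cannot be told apart if strand was not used. SUPT5H, the large subunit SPT5, was between 84.7 and 154 CPM and passed no test.

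Among the 5 genes listed here for the PAF1 complex, which joins elongating Pol II and is needed for several histone marks on active genes, CTR9 stood out. CTR9, the scaffold subunit, was at 63.0, 59.5 and 60.1 CPM in shNT, 43.9, 54.4 and 47.0 CPM in shNT+OHT, 139, 133 and 117 CPM under the label shCDK12 and 106, 114 and 109 CPM under the label shCDK12+OHT. Libraries with the 2 shRNA labels did not overlap. CTR9 was 2.13-fold higher without OHT (log2 1.09 ± 0.11, adjusted p = 6.71e-09) and 2.33-fold higher with OHT (1.22 ± 0.13, adjusted p = 5.83e-05). Within the libraries labelled shCDK12 it fell with OHT (−0.24 ± 0.09, adjusted p = 0.034), a call lost without shCDK12 replicate 1 or any 1 shCDK12+OHT library (0.0596 to 0.119). CTR9 overlaps EIF4G2 on the opposite strand over 4576 bases.

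RTF1, which is more loosely bound to the complex, was at 75.9, 79.0 and 81.7 CPM in shNT, 66.1, 59.4 and 71.3 CPM in shNT+OHT, 98.2, 84.6 and 87.7 CPM under the label shCDK12 and 88.0, 94.5 and 81.6 CPM under the label shCDK12+OHT. Only the comparison with OHT passed (0.43 ± 0.13, adjusted p = 0.0195), and not without shCDK12+OHT replicate 1 or 2 (0.0762 and 0.109). With thinned libraries this change was 0.18 (adjusted p = 0.64). PAF1 itself was at 62.5, 59.3 and 53.1 CPM in shNT, 81.1, 69.3 and 75.4 CPM in shNT+OHT, 60.0, 64.7 and 72.5 CPM under the label shCDK12 and 58.3, 63.4 and 60.8 CPM under the label shCDK12+OHT. PAF1 passed in no comparison of 2 groups. LEO1, between 28.3 and 45.9 CPM, and CDC73, between 4.07 and 17.5 CPM, passed no test.

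FACT is a dimer of SUPT16H (SPT16) and SSRP1 that takes nucleosomes apart ahead of Pol II and rebuilds them behind it, and its 2 genes separated in the libraries labelled shCDK12. SUPT16H was at 149, 149 and 130.3 CPM in shNT, 130.3, 153 and 154 CPM in shNT+OHT, 77.4, 76.4 and 93.5 CPM under the label shCDK12 and 77.7, 74.4 and 84.9 CPM under the label shCDK12+OHT. It followed the shRNA label and showed no call with OHT, and it fell by 0.81 ± 0.11 without OHT (adjusted p = 4.08e-07) and fell by 0.86 ± 0.13 with OHT (adjusted p = 0.000374). SSRP1 was at 186, 170.0 and 140.3 CPM in shNT, 236, 187 and 253 CPM in shNT+OHT, 293, 253 and 270.4 CPM under the label shCDK12 and 176, 176 and 191 CPM under the label shCDK12+OHT. It was highest in the libraries labelled shCDK12, where it exceeded shNT by 0.70 ± 0.10 on the log2 scale (adjusted p = 8.26e-07), and it fell with OHT in these libraries (−0.59 ± 0.08, adjusted p = 1.13e-05). Its rise with OHT in shNT (0.45 ± 0.14, adjusted p = 0.0417) was lost without any 1 of the shNT libraries or without shNT+OHT replicate 3 (0.0694 to 0.192). SUPT6H, the chaperone SPT6 that binds histones and the polymerase, was lower in the libraries labelled shCDK12 than in shNT (−0.32 ± 0.10, adjusted p = 0.00672), which was lost without shNT replicate 2 (adjusted p = 0.068), and passed no other test.

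**Figure D3:**
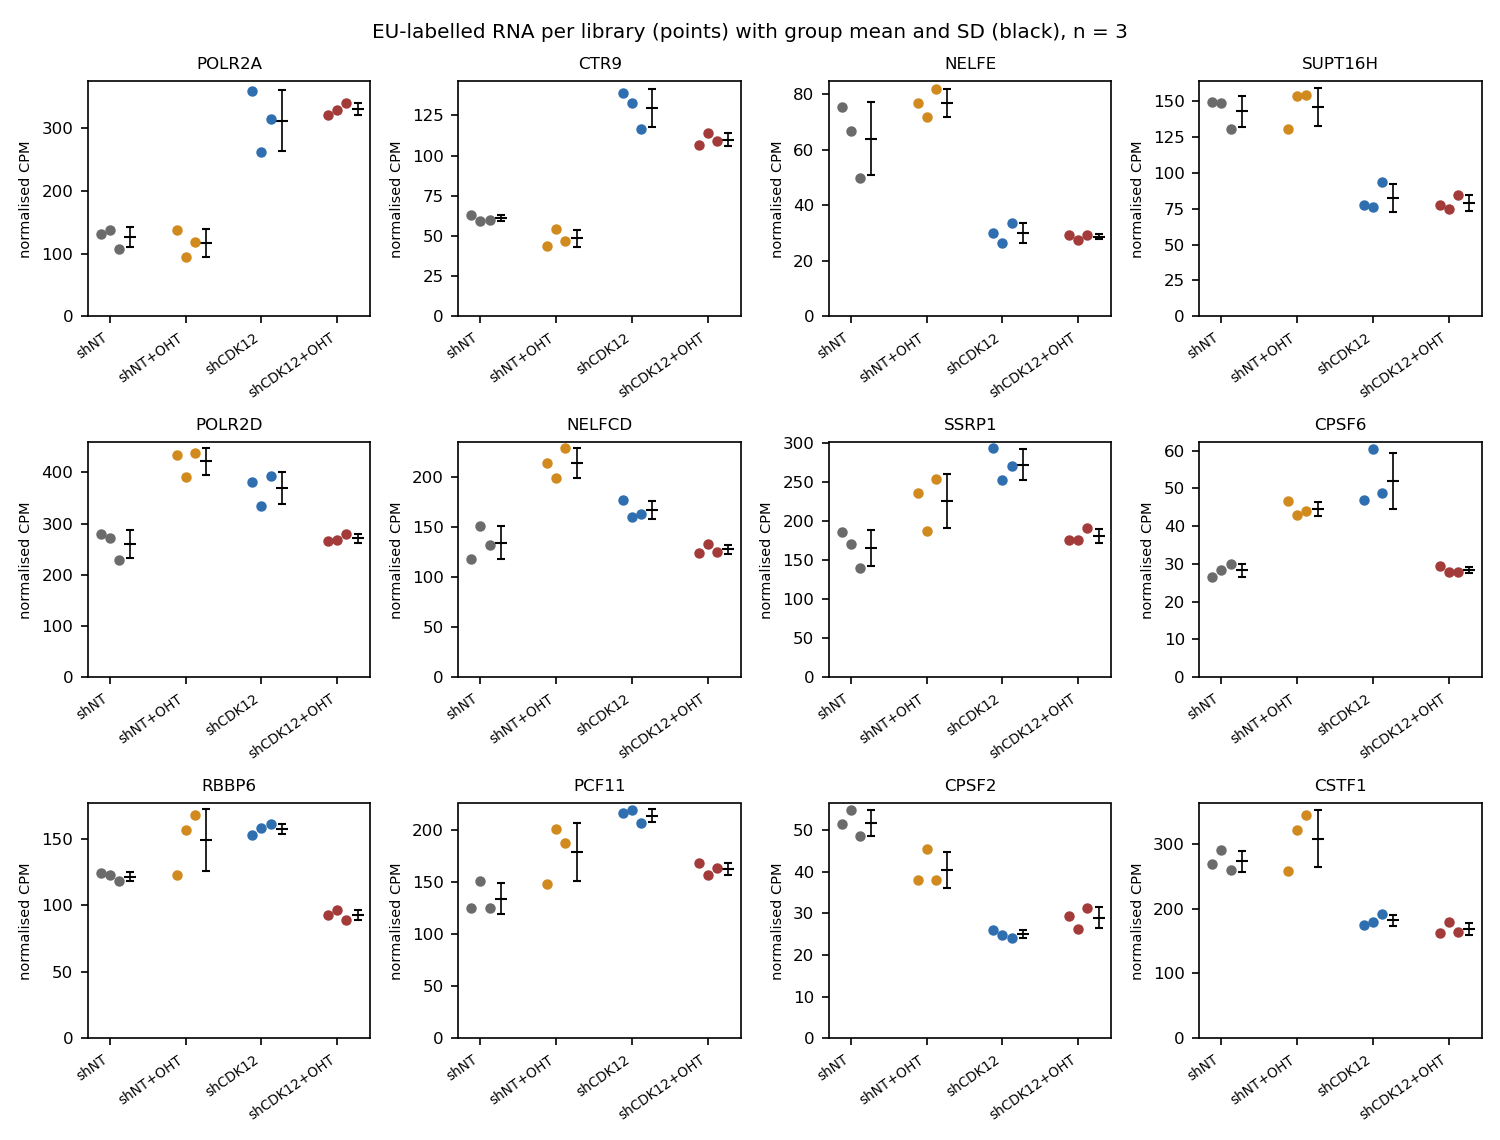
Normalised CPM of 12 genes in each library on linear axes from 0, with 1 point per library and the mean and SD of each group of 3 libraries in black. POLR2A and CTR9 are high and NELFE, SUPT16H, CPSF2 and CSTF1 low under both shCDK12 labels, whereas POLR2D, NELFCD, SSRP1 and CPSF6 have higher means in shNT+OHT and shCDK12 than in the other groups.

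CPSF recognises the AAUAAA signal and cuts the RNA. Of its 6 genes, 4 were lower in the libraries labelled shCDK12 than in shNT and none higher, in a comparison where 32.4% of all genes were lower and 29.6% higher. CPSF2, the catalytically inactive relative of the endonuclease CPSF3, was at 51.5, 54.8 and 48.6 CPM in shNT, 37.9, 45.4 and 38.0 CPM in shNT+OHT, 25.9, 24.9 and 24.1 CPM under the label shCDK12 and 29.3, 26.3 and 31.2 CPM under the label shCDK12+OHT. It fell by 1.06 ± 0.15 on the log2 scale without OHT (adjusted p = 8.36e-07), and the lower values with OHT missed the threshold although the libraries did not overlap (−0.45 ± 0.17, adjusted p = 0.0502). CPSF4, a zinc-finger subunit that binds the signal, was at 79.6, 76.9 and 74.2 CPM in shNT, 77.7, 73.4 and 63.5 CPM in shNT+OHT, 63.5, 53.6 and 51.6 CPM under the label shCDK12 and 76.1, 81.2 and 69.7 CPM under the label shCDK12+OHT. It was low in the libraries labelled shCDK12 alone, below shNT by a log2 change of −0.46 ± 0.12 (adjusted p = 0.00245), and rose with OHT there (0.44 ± 0.11, adjusted p = 0.0021), though with all libraries thinned to the smallest total this change turned to −0.013. The span of CPSF4 lies wholly opposite PTCD1 (18452 bases).

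WDR33, which binds the signal beside CPSF4, was lower under the label shCDK12 without OHT (−0.44 ± 0.10, adjusted p = 0.000479) and with OHT (−0.55 ± 0.14, adjusted p = 0.00898). CPSF3, the endonuclease, was lower without OHT (−0.55 ± 0.19, adjusted p = 0.0156), and the call was lost without shNT replicate 2 or shCDK12 replicate 1 (0.0528 and 0.194). FIP1L1, which binds poly(A) polymerase, was lower with OHT (−0.71 ± 0.17, adjusted p = 0.0064). CPSF1, the largest subunit, was between 80.0 and 166 CPM and passed no test.

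CFIm binds UGUA motifs upstream of the poly(A) site and is known for its part in the choice between early and late sites. Its 3 genes showed 3 patterns. CPSF6, one of its large subunits, was at 26.5, 28.3 and 30.1 CPM in shNT, 46.7, 42.9 and 44.1 CPM in shNT+OHT, 46.8, 60.4 and 48.7 CPM under the label shCDK12 and 29.3, 28.0 and 27.8 CPM under the label shCDK12+OHT. The groups fell into a low and a high pair with no overlap between them. CPSF6 was higher in the libraries labelled shCDK12 than in shNT (0.90 ± 0.15, adjusted p = 1.77e-05) and, with OHT, lower under the label shCDK12+OHT (−0.64 ± 0.15, adjusted p = 0.00625). It fell with OHT in the libraries labelled shCDK12 (−0.89 ± 0.12, adjusted p = 1.38e-05), and its interaction of −1.55 ± 0.21 (adjusted p = 6.38e-06) was the largest in size among the 39 genes tested. With the labels shCDK12 and shCDK12+OHT exchanged, its 2 OHT responses would differ by 0.22, a value from arithmetic with no test. The 2 responses had opposite signs, so an exchange makes their difference smaller by construction. Its rise with OHT in shNT (0.66 ± 0.19, adjusted p = 0.0297) was lost without any 1 of the shNT libraries or without shNT+OHT replicate 3 (0.0575 to 0.136). The call was also lost with the replicate number as a block (adjusted p = 0.0505) and after thinning (0.63, adjusted p = 0.215). The alternative large subunit CPSF7 was lower under the label shCDK12 without OHT (−0.52 ± 0.09, adjusted p = 1.88e-05) and with OHT (−0.75 ± 0.10, adjusted p = 0.000222). NUDT21, the UGUA-binding subunit itself, was between 73.3 and 144 CPM and passed no test.

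CstF binds the GU-rich stretch downstream of the cut. CSTF1 was at 269.6, 291 and 259.6 CPM in shNT, 259, 322 and 345 CPM in shNT+OHT, 175, 179.8 and 192 CPM under the label shCDK12 and 163, 179 and 165 CPM under the label shCDK12+OHT. It followed the shRNA label with no overlap, and it fell by 0.59 ± 0.09 without OHT (adjusted p = 1.66e-06) and fell by 0.85 ± 0.12 with OHT (adjusted p = 0.000342). CSTF3, its scaffold, was low at between 10.1 and 20.6 CPM and fell only with OHT within the libraries labelled shCDK12 (−0.52 ± 0.17, adjusted p = 0.0176), which was lost without shCDK12 replicate 2 or shCDK12+OHT replicate 1 or 3 (0.0628 to 0.0919). CSTF3 overlaps TCP11L1 on the opposite strand over 28756 bases, so their signals cannot be told apart there if strand was not used. CSTF2, the RNA-binding subunit, passed no test.

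CFIIm has 2 subunits, and both were higher in the libraries labelled shCDK12 than in shNT, as were 29.6% of all genes. PCF11, which binds the CTD of POLR2A and also acts in termination, was at 125, 151 and 125 CPM in shNT, 148, 201 and 187 CPM in shNT+OHT, 216, 219 and 207 CPM under the label shCDK12 and 169, 157 and 163 CPM under the label shCDK12+OHT. It was higher by 0.67 ± 0.09 on the log2 scale (adjusted p = 1.03e-06) and fell with OHT within the libraries labelled shCDK12 (−0.39 ± 0.08, adjusted p = 0.000352). With OHT in both groups the libraries overlapped. CLP1, an RNA kinase, was higher without OHT (0.53 ± 0.11, adjusted p = 0.000187) and with OHT (0.32 ± 0.11, adjusted p = 0.0339), but the second call was lost in 10 of 14 alternatives, among them fits without shNT+OHT replicate 2 or any 1 shCDK12+OHT library (0.0625 to 0.161), DESeq2 (adjusted p = 0.0592), RLE (0.0733) and upper-quartile normalisation (0.064) and no filter on low counts (0.0567).

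Among the scaffold and the regulators of cleavage, SSU72 and RBBP6 rose and SYMPK fell in the libraries labelled shCDK12. SSU72, a CTD phosphatase, was at 74.5, 70.3 and 55.6 CPM in shNT, 100.3, 83.3 and 91.1 CPM in shNT+OHT, 136, 122 and 133 CPM under the label shCDK12 and 104, 119 and 98.3 CPM under the label shCDK12+OHT. It was 1.92-fold higher without OHT (log2 0.94 ± 0.11, adjusted p = 8.33e-08) and fell with OHT in these libraries (−0.28 ± 0.09, adjusted p = 0.0179), a call lost without shCDK12 replicate 3 or shCDK12+OHT replicate 1 or 3 (0.0597 to 0.0961).

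RBBP6, a ubiquitin ligase that activates cleavage, was at 124, 123 and 118 CPM in shNT, 123, 157 and 168 CPM in shNT+OHT, 153, 158 and 161 CPM under the label shCDK12 and 92.6, 96.4 and 88.7 CPM under the label shCDK12+OHT. The libraries labelled shCDK12+OHT were below all others. RBBP6 was higher under the label shCDK12 without OHT (0.37 ± 0.09, adjusted p = 0.00128) and lower with OHT (−0.66 ± 0.14, adjusted p = 0.00278), and it fell with OHT in these libraries (−0.76 ± 0.08, adjusted p = 7.05e-07). With thinned libraries these changes were 0.18, −0.595 and −0.593 (adjusted p = 0.428, 0.0882 and 0.073). SYMPK, the scaffold that holds CPSF and CstF together, was lower without OHT (−0.68 ± 0.13, adjusted p = 0.000106) and with OHT (−0.80 ± 0.20, adjusted p = 0.00669).

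Of the 5 genes of poly(A) synthesis and termination, 2 passed any test, against 78.5% of all genes. PAPOLA, the main nuclear poly(A) polymerase, was at 58.8, 62.1 and 62.1 CPM in shNT, 61.4, 61.9 and 78.0 CPM in shNT+OHT, 68.8, 94.2 and 86.2 CPM under the label shCDK12 and 71.9, 71.9 and 71.8 CPM under the label shCDK12+OHT. Only the comparison of shCDK12 with shNT passed (0.46 ± 0.13, adjusted p = 0.00346). PABPN1, which coats the new tail, passed no test, and its whole span is shared with the read-through gene BCL2L2-PABPN1 on the same strand. SCAF4, which binds the CTD and keeps Pol II from stopping at early poly(A) sites, was at 230.3, 216 and 206 CPM in shNT, 227, 230.2 and 229 CPM in shNT+OHT, 199.9, 173 and 174 CPM under the label shCDK12 and 147, 129 and 151 CPM under the label shCDK12+OHT. It was lowest in shCDK12+OHT, below shNT+OHT by a log2 change of −0.67 ± 0.11 (adjusted p = 0.000782) and below shCDK12 by −0.36 ± 0.09 (adjusted p = 0.00264). Without OHT the change was smaller (−0.26 ± 0.09, adjusted p = 0.0141) and was lost without shNT replicate 1 or 2 or shCDK12 replicate 3 (0.0502 to 0.0964) and with upper-quartile normalisation (−0.17, adjusted p = 0.11). Its relative SCAF8, between 208 and 291 CPM, and XRN2, between 45.6 and 69.6 CPM, passed no test.

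Some comparisons share no library and can be set side by side. Between shCDK12 against shNT and shCDK12+OHT against shNT+OHT, 27 of 39 genes (69.2%) had the same sign, with a Pearson correlation across genes of 0.62, beside 59.4% and 0.35 over 11440 genes. Calls in both comparisons were made for 16 of the 39 (41%, against 30.6% of all genes), and 11 of the 16 had the same sign (68.8%, against 71% of all genes called in both). Of the 16, POLR2A, CTR9 and CLP1 were higher in both, and NELFE, SUPT16H, CSTF1, SYMPK, CPSF7, SUPT4H1, WDR33 and SCAF4 were lower in both. The other 5 changed sign: CPSF6, POLR2D, NELFA, NELFCD and RBBP6 were higher without OHT and lower with it. Between the OHT responses in shNT and in the libraries labelled shCDK12, 26 of 38 genes (68.4%) had opposite signs with a correlation of −0.55, beside 71.1% of 10233 genes and −0.62 over the whole table. All 4 genes called in both, POLR2D, NELFCD, CPSF6 and SSRP1, rose in the first and fell in the second, and of the 1394 genes of the table called in both, 2.22% had the same sign. With the labels shCDK12 and shCDK12+OHT exchanged, the same 26 genes would share a sign and the correlation would be of the same size and positive. This holds by construction, because an exchange only turns the sign of the OHT response in those libraries. It is therefore no test of an exchange. The 4 genes called in both were high in shNT+OHT and shCDK12, as the summed Myc targets were, and the relation between them was not tested.

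**Figure D4:**
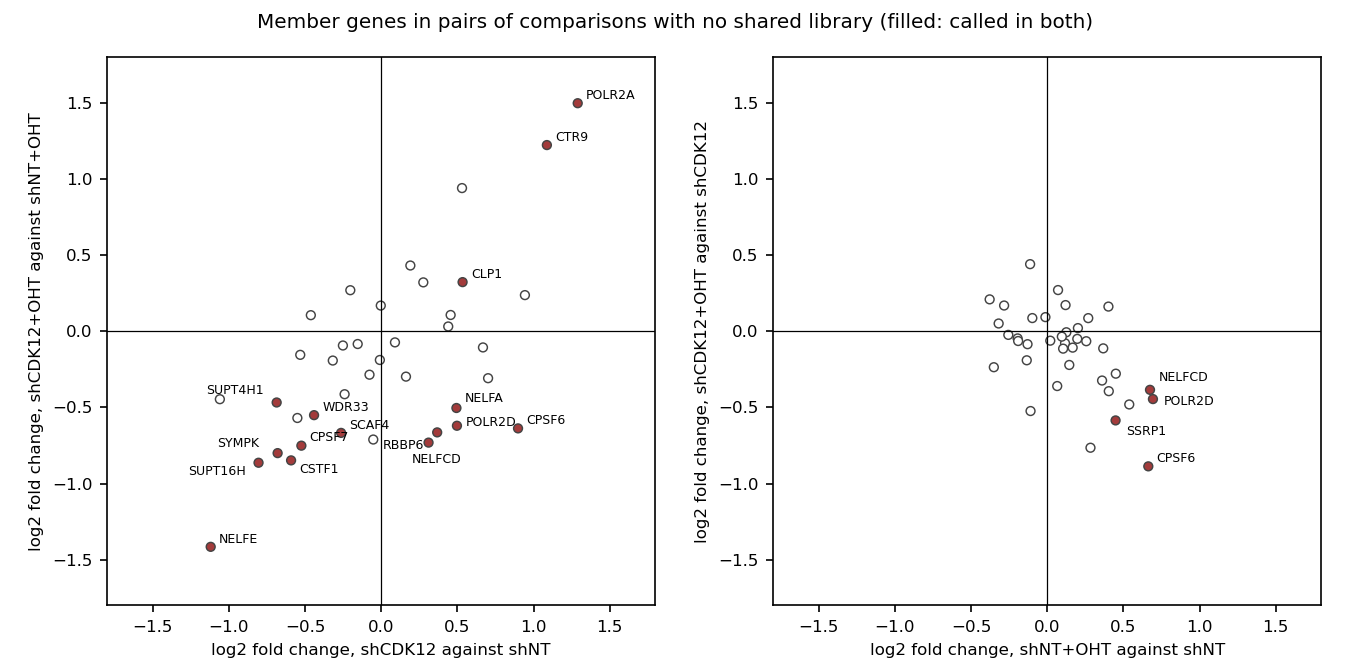
Log2 fold change of each gene in 2 pairs of comparisons that share no library, shCDK12 against shNT and shCDK12+OHT against shNT+OHT on the left, and the responses to OHT in shNT and in the libraries labelled shCDK12 on the right; filled, named points were called in both. On the left 11 of 16 filled points lie in the quadrants of equal sign, and on the right all 4 lie in the quadrant of a rise in shNT and a fall under the label shCDK12.

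The other genes of these pathways, 47 in all, were counted for comparison. OHT in shNT raised 7 of the 43 tested and lowered 2 (20.9% called, against 17.3% of all genes, of which 9.05% were higher), and 4 of the 7 were among the 9 remaining Pol II subunits. POLR2F and POLR2E, small subunits shared by all 3 nuclear polymerases, rose by 1.13 ± 0.25 and 0.83 ± 0.21 (adjusted p = 0.00706 and 0.0135), and MLLT1, a reader in the super elongation complex, by 1.29 ± 0.16 (adjusted p = 0.000135). Of the scaffolds of that complex, AFF1 fell by 0.57 ± 0.12 (adjusted p = 0.00668) and AFF4 fell by 0.50 ± 0.12 (adjusted p = 0.0115). The POLR2E call was lost without any 1 shNT library (0.0508 to 0.0931), that of AFF1 without shNT replicate 1 or 2 (0.0554 and 0.0556) and that of AFF4 without shNT replicate 1 or 3 (0.0581 and 0.0618).

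In the libraries labelled shCDK12, 19 of 44 of these other genes were higher than in shNT and 9 lower (63.6% called, against 62% of all genes). MLLT3, the relative of MLLT1, rose the most (2.44 ± 0.18, adjusted p = 2.69e-11), followed by POLR2F (1.51 ± 0.16, adjusted p = 2.17e-08) and ELOA, the active subunit of elongin (1.04 ± 0.09, adjusted p = 3.27e-10). PPP1CA, a phosphatase catalytic subunit, fell by 0.85 ± 0.10 (adjusted p = 3.59e-08), SKIC8 fell by 0.75 ± 0.22 (adjusted p = 0.0046) and POLR2L fell by 0.66 ± 0.13 (adjusted p = 0.000149). With OHT in both groups, 10 were higher and 12 lower (50% called, against 45.4% of all genes). MLLT3 was again higher (2.11 ± 0.19, adjusted p = 1.86e-05), as were TCEA1, the factor TFIIS that rescues backtracked Pol II (1.14 ± 0.36, adjusted p = 0.0232), and PPP1CB (1.09 ± 0.26, adjusted p = 0.006). The TCEA1 call was lost without any 1 shCDK12+OHT library (0.0548 to 0.0857). POLR2L fell by 1.85 ± 0.14 (adjusted p = 6.16e-06), POLR2H fell by 1.47 ± 0.16 (adjusted p = 6.26e-05) and MLLT1 fell by 0.95 ± 0.14 (adjusted p = 0.000352).

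Within the libraries labelled shCDK12, OHT raised 7 of 46 and lowered 15 (47.8% called, against 48.9% of all genes, of which 21.5% were lower), among them 5 of the 9 remaining Pol II subunits. TTF2, a termination factor, fell by 0.98 ± 0.09 (adjusted p = 1.33e-07), POLR2E fell by 0.84 ± 0.11 (adjusted p = 1.06e-05) and ELOA fell by 0.71 ± 0.09 (adjusted p = 4.57e-06). AFF1, AFF4 and PPP1CA rose by 0.50 ± 0.08, 0.47 ± 0.07 and 0.41 ± 0.09 (adjusted p = 6.4e-05, 4e-05 and 0.0011). In thinned libraries the calls for POLR2E, AFF4 and PPP1CA in this comparison were lost (adjusted p = 0.586, 0.0531 and 0.591), as were those for POLR2E with OHT in shNT (0.145) and for POLR2L in shCDK12 against shNT (0.483). The interaction passed for 18 of 44 (40.9%, against 45.2% of all genes), higher for 4 and lower for 14, and none of the 9 remaining Pol II subunits was higher while 4 were lower.

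The promoters of these genes were searched for CACGTG, the E-box that Myc and its partner Max are known to bind. It reads the same on both strands, so 1 search covers both. Of the 37 genes with a RefSeq promoter entry (GRCh38.p14), 3 (8.11%) held it in the 250 bases before the start, namely RBBP6, SUPT16H and XRN2, beside 1586 of 16493 counted genes (9.62%). CDC73, CPSF1 and SCAF4 had no entry. The motif in RBBP6 begins 118 bases and that in SUPT16H 237 bases before the start. The promoters of POLR2D and CPSF6, among the genes that rose with OHT in shNT, held none. The 4 are shown from the 5′ end, in the direction of transcription and ending at the base before the start, with the motif in capitals: RBBP6 at chr16:24539316-24539565 (plus strand), SUPT16H at chr14:21384020-21384269 (minus strand), POLR2D at chr2:127858156-127858405 (minus strand) and CPSF6 at chr12:69239319-69239568 (plus strand).
RBBP6: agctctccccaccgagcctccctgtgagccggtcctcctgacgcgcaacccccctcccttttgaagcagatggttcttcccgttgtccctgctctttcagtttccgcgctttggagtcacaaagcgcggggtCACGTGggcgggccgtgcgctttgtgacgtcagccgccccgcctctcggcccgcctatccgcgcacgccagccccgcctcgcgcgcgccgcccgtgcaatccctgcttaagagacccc
SUPT16H: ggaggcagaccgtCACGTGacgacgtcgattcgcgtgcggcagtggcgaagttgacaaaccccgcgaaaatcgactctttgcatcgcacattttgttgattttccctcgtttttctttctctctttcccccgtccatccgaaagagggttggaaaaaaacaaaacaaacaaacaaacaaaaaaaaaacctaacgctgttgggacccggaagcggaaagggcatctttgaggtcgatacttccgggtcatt
POLR2D: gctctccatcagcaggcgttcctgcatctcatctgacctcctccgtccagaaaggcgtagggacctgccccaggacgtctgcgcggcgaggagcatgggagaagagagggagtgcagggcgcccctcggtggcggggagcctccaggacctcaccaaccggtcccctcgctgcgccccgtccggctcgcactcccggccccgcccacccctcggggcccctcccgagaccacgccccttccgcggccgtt
CPSF6: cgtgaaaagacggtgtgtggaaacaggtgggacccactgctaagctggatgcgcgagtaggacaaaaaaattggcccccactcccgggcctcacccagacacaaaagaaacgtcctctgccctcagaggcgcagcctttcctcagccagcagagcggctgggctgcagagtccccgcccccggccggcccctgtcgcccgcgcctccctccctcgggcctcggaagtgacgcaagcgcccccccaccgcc
A match describes these letters only, and no binding was measured.

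Gene length was set beside the changes because CDK12 is known for its part in the transcription of long genes. The annotated spans of the 40 genes (GENCODE v44) ran from 4.707 kb (PABPN1) to 132.833 kb (CDC73), with a median of 34.272 kb. Across the genes tested, the Pearson correlation between log10 span and log2 fold change was −0.32 for OHT in shNT, 0.12 and 0.28 for the label shCDK12 without and with OHT, and −0.07 for OHT in the libraries labelled shCDK12. For the interaction it was 0.18. The same correlation over all genes was not computed, and an effect of length was not tested. In shCDK12 against shNT, the largest called rises were those of POLR2A (30.251 kb), CTR9 (50.38 kb) and SSU72 (33.191 kb). The largest falls were those of NELFE (6.952 kb), CPSF2 (50.177 kb) and SUPT16H (32.544 kb). Of the 40 spans, 21 overlap another counted gene or microRNA, and those of POLR2A, POLR2D, SUPT16H, SSRP1, RBBP6, PCF11, CSTF1 and CPSF2 overlap none.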

How the data were processed

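EU-labelled RNA was captured, made into TruSeq stranded libraries and counted per gene in 12 libraries. The authors deposited raw counts per gene in 1 table. The submitters' processing notes name STAR 2.7.5c, featureCounts 1.4.5-p1 and hg19; the annotation, the strand setting and the handling of murine reads are not given in the sources used here. Of 23434 genes, 23284 were matched to a symbol and 150 were not. Groups followed the deposited labels, which do not say whether replicates came from separate cultures, so p-values measure only the spread between these libraries. In R 4.3.3, edgeR 4.0.16 (TMM, quasi-likelihood test, Benjamini-Hochberg adjustment over all genes tested) was run on genes with a mean normalised count above 32 in the libraries compared, in 6 libraries for each comparison of 2 groups and in 12 for the interaction, and a gene was called at an adjusted p under 0.05. The test was checked on simulated data, but the outcome of that check is not given here. Total counts ran from 1251695 to 10447836, and the shallowest library limits the precision of genes at a few CPM. Alternatives were DESeq2 1.42.0, other normalisations, no filter or a minimum mean of 100, a replicate block, thinning, all 12 libraries in 1 fit, and fits with each library left out. Values in every library are given for the gene with the lowest interaction p in each complex and for up to 3 rises and 3 falls in each comparison whose libraries did not overlap. Gene spans came from GENCODE v44 and promoters from RefSeq, both on GRCh38. The genes, the lists and the tests were chosen with earlier results of these data known.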

Additional observations from a re-analysis of the deposited data

Results flagged for a closer look

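Of the 39 genes tested, 14 (35.9%, against 45.2% of 11699 genes) passed the interaction test of edgeR over all 12 libraries. For these 14, the log2 change with OHT differed between the shRNA labels at an adjusted p under 0.05 in that test. The values are log2 differences, the response in the libraries labelled shCDK12 minus that in shNT. Those of the polymerase and of NELF were −1.14 for POLR2D, 0.46 for POLR2B, −1.01 for NELFA and −1.06 for NELFCD. That of PAF1 was −0.48 and that of SSRP1 −1.04. In the cleavage machinery the difference was 0.59 for CPSF2, 0.55 for CPSF4, −0.67 for FIP1L1, −1.55 for CPSF6, −0.79 for PCF11, −0.73 for SSU72, −1.05 for RBBP6 and −0.43 for SCAF4. All 14 values rest on the labels shCDK12 and shCDK12+OHT, and whether these were exchanged was not tested. With these 2 labels exchanged, the difference between the 2 OHT responses would run from −0.33 for CPSF4 to 0.48 for RBBP6, with −0.25 for POLR2D, −0.29 for NELFCD and 0.22 for CPSF6. These values come from arithmetic on the 2 fold changes, with no test. The 2 responses had opposite signs in all 14 genes, so turning one of them makes each difference smaller by construction.

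Of these 14 calls, 8 held whichever library was left out, and 5 of these 8 (POLR2D, NELFCD, SSRP1, CPSF6 and PCF11) also held in every other alternative. After thinning, SSU72 (adjusted p = 0.199), RBBP6 (0.0602) and NELFA (0.0946) were lost, as were the 6 genes that follow, among them CPSF4, whose value dropped to 0.13. POLR2B was also lost with DESeq2 (0.0529), RLE (0.0662) and upper-quartile normalisation (0.104), CPSF4 with upper-quartile normalisation (0.0723), CPSF2 with it (0.0698) and without a filter on low counts (0.0753), and PAF1 without that filter (0.0824). The POLR2B call was lost in 10 of the 12 fits that left out 1 library (adjusted p from 0.055 to 0.109), with shNT replicate 1, 2 or 3, shNT+OHT replicate 1 or 3, shCDK12 replicate 1 or 3 or any 1 shCDK12+OHT library left out. FIP1L1 was lost without shNT replicate 2 or 3, shCDK12 replicate 1 or 2, or shCDK12+OHT replicate 1 or 3 (0.0563 to 0.0742), and PAF1 without shNT replicate 2 or 3, shNT+OHT replicate 1, shCDK12 replicate 3, or shCDK12+OHT replicate 1 or 3 (0.0518 to 0.0938). CPSF2 was lost without shNT replicate 2, shCDK12 replicate 3, or shCDK12+OHT replicate 1 or 3 (0.0544 to 0.0656), CPSF4 without shNT+OHT replicate 3, shCDK12 replicate 2 or 3, or shCDK12+OHT replicate 2 (0.0514 to 0.0582), and SCAF4 without shCDK12 replicate 1 or shCDK12+OHT replicate 2 (0.0545 and 0.0669).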

How the results depend on the processing

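Of 74 calls among the 40 genes, 54 held whichever library was left out, and 60 held under DESeq2, RLE and upper-quartile normalisation, both other filters, the replicate block and the fit of all 12 libraries. Thinning all libraries to the smallest total cost the most: of 72 calls still tested, 34 held, 37 were lost and CPSF4 turned (−0.013 for OHT in the libraries labelled shCDK12). The upper-quartile setting also lost SUPT6H in shCDK12 against shNT (adjusted p = 0.0504), and the fit of all 12 libraries lost CPSF3 there (0.0531) and CSTF3 (0.06), SSU72 (0.0715) and CTR9 (0.101) for OHT in the libraries labelled shCDK12. CDK12 turned to 0.015 under upper-quartile normalisation for shCDK12 against shNT. After thinning, the calls among the 40 genes and over all genes were 1 and 800 for OHT in shNT, 16 and 2987 for shCDK12 against shNT, 10 and 1761 for shCDK12+OHT against shNT+OHT, 3 and 1045 for OHT in the libraries labelled shCDK12, and 5 and 1741 for the interaction, with fewer reads and fewer genes tested. For OHT in shNT, DESeq2 called 7 of the genes, and the fit of all 12 libraries 10 of the genes and 3256 in all. With 1 library left out, the calls among the 40 genes ranged from 2 to 8 (the lowest when shNT replicate 1 was left out, the highest when shNT+OHT replicate 1 was), 22 to 28, 15 to 22, 10 to 14 and 10 to 14 in the same order of comparisons, and over all genes from 670 (without shNT replicate 2) to 2523, 6425 to 7132, 3520 (without shCDK12+OHT replicate 2) to 6238, 5000 to 6500 and 4609 to 5829. The median of all genes shifted by more than 0.1 in 5 cases: in the interaction by −0.12 with upper-quartile normalisation and by −0.13 with thinning, in shCDK12+OHT against shNT+OHT by −0.10 with thinning and by 0.16 without a filter on low counts, and in shCDK12 against shNT by 0.15 without that filter.

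Deviations of same-numbered libraries correlated at −0.09 to 0.30 over 18 pairs (median 0.03), of which 2 were above 0.1. These joined shNT+OHT to shCDK12, for replicate 1 (0.28) and replicate 2 (0.30). Differently numbered libraries correlated at −0.34 to 0.10 over 36 pairs (median −0.02), none above 0.1. Whether the replicate number marks libraries handled together was not tested. With the replicate number as a block, the calls among the 40 genes were 3, 25, 16, 14 and 14, and those over all genes 1734, 7437, 4846, 6236 and 5385, in the same order. The block lost the calls of CPSF6 for OHT in shNT (adjusted p = 0.0505) and of CLP1 (0.0683) and NELFA (0.0724) in shCDK12+OHT against shNT+OHT, and no other call among the 40 genes.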
